A study of Mus musculus with 12 samples.

Results

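The 30 genes described here encode components of the pathway that runs from phosphoinositide 3-kinase (PI3K) through the kinase AKT to the kinase mTOR. They were taken by name from a fixed list, out of 43243 gene names measured in RNA-seq libraries of mouse prostate organoids, and all 30 were found. The series holds 6 libraries labelled SPOPmut and 6 labelled SPOPwt. Each group carries the numbers S0 to S5, and libraries of equal number were treated as a pair. SPOP recruits substrates to a ubiquitin ligase built on a cullin, and the series asks which genes differ between SPOPmut organoids and their controls. Both groups were prostate cells digested from mouse tissue and grown in Matrigel, an extracellular matrix gel, with epidermal growth factor at 5 to 50 ng/ml.

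By the protocols, a tamoxifen-activated Cre recombinase (CreERT2) was switched on with 1 μM 4-hydroxytamoxifen. Model A received the recombinase by virus, with puromycin selection, whereas model B carried it as a TMPRSS2-CreERT2 transgene. SPOPmut cells were sorted by GFP, whereas control cells went through a sham sort, so the mutant and the sort cannot be told apart. The protocols also describe lines in which the Probasin promoter drives Cre, with the allele R26F133V in the mutants and no PbCre in the controls. They assign 5 of the sequenced pairs to model A and 1 pair to model B, and the library labels name neither the model nor the allele. Separate cultures or animals are not stated for the pairs, so the p-values below measure the spread among these 12 libraries only, and that spread may be technical.

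PI3K of class IA is a dimer of a catalytic and a regulatory subunit that adaptor proteins recruit to activated receptors, where it makes a membrane lipid that brings the kinases PDK1 and AKT together. Active AKT releases mTOR complex 1 from inhibition by the TSC complex, and this complex then drives protein synthesis through S6 kinases and the 4E-BP proteins. In prostate epithelium the pathway is known for its activation in cancer. SPOP acts on protein stability, which RNA levels do not measure.

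By their marker genes, the S5 libraries of both genotypes stood apart. In S5, both libraries held the basal keratin Krt5, with 1705 RPKM in SPOPmut and with 1194 RPKM in SPOPwt (RPKM is the authors' read number relative to gene length and library depth). In the other 10 libraries Krt5 was at most 0.241 RPKM and the epithelial adhesion gene Epcam at most 1.28 RPKM, so defining epithelial markers were at or near 0 there although the labels call all samples prostate organoids. Those 10 libraries held the collagen gene Col1a1 at 269 to 848 RPKM and the mesenchymal filament gene Vim at 213 to 525 RPKM. The mean log2(RPKM + 1) of 7 basal markers was 6.92 to 7.17 in S5 and 0.64 to 0.99 in S0 to S4, and that of 9 markers of fibroblasts and smooth muscle was 0.60 to 0.72 in S5 and 5.43 to 6.81 in S0 to S4. In S0 the mutant correlated less with its own control across genes (r = 0.9435, 13600 genes) than with the S2 control (0.9670). The same held by less for the S1 mutant (0.9873 with its own control, 0.9892 with the S2 control). Deviations from the group means were shared within S1 to S5 (correlations of 0.753 or more) but hardly within S0 (0.0602), so results that rest on S0 are given with and without it. The targeted gene, Spop, averaged 51.4 ± 3.66 RPKM (SD, n = 6) in SPOPmut and 46.0 ± 4.18 RPKM (SD, n = 6) in SPOPwt, a difference of 0.16 on the log2(RPKM + 1) scale (SE 0.067, limma adjusted p = 0.886). Spop was higher in SPOPmut in 6 of 6 pairs, as were 3.62% of all tested genes. Library depth, estimated from the values, ran from 28270000 to 40820000 reads. RPKM levels of bulk samples cannot tell fewer cells of a type from less RNA per cell.

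Most of the pathway was expressed in every library. An RPKM of at least 1 was reached in all 12 libraries by 25 of the 30 genes, and 15 of them stayed at 5 RPKM or more throughout. The genes tested for genotype were those at 1 RPKM or more in at least 6 libraries, which kept the same number, 25 of 30, and 13600 genes in all. The genes left out were Pik3cd and Pik3r3 (PI3K subunits), Grb10 (an adaptor that dampens insulin signalling), and the lipid phosphatases Inpp4b and Inpp5d.

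No member differed between SPOPmut and SPOPwt past the threshold of an adjusted p of 0.05 over all genes (limma with pair as a block). The background was the same, with 0% of the 13600 genes called, although 761 genes had an unadjusted p under 0.05. The adjusted p-values of the 25 members ran from 0.881 to 0.998. For 24 of the 25, the 95% confidence interval of the difference lay within a 1.5-fold change of RPKM + 1 in either direction, and the exception was Pik3ip1. The median difference of the members was -0.013 log2 units, beside 0.00055 over all tested genes. On average 11 of 25 members were higher in SPOPmut, against 50.2% of all tested genes. At an unadjusted p under 0.05, 1 of 25 members (4.00%, Pik3r1) was higher in SPOPmut, against 3.82% of all tested genes, and 0 were lower, against 1.77%. In all 6 pairs alike, 1 member (4.00%, Pik3ca) was higher in SPOPmut, against 3.62% of all genes, and 0 were lower, against 1.68%. These shares lay near the background.

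**Figure D1:**
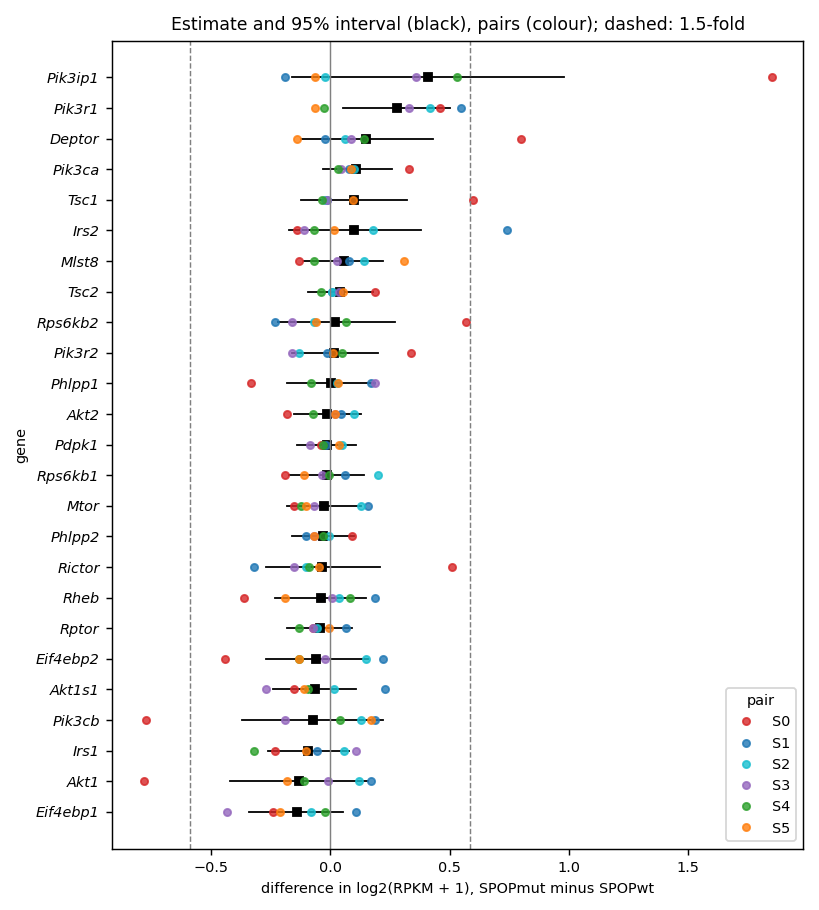
Difference between SPOPmut and SPOPwt for each of the 25 tested members, in log2(RPKM + 1) units, with squares and bars for the mean and 95% confidence interval of limma with pair as a block, coloured points for the pairs and dashed lines at a 1.5-fold change. Only the interval of Pik3ip1 reaches past a dashed line, and only that of Pik3r1 leaves out 0.

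Among the regulatory subunits, which stabilise the catalytic subunit and bind phosphorylated receptors and adaptors, Pik3r1 (the p85 alpha gene, chromosome 13, 101680563 to 101768217, minus strand, GRCm38) had the smallest unadjusted p of all members. Its level ran from 3.79 to 26.6 RPKM in SPOPmut (median 14.2) and from 4.00 to 20.9 RPKM in SPOPwt (median 9.85). The groups overlapped, because the pairs differed from each other by more than the genotypes. Within pairs, Pik3r1 differed by 0.46 log2 units in S0, 0.55 in S1, 0.42 in S2, 0.33 in S3, -0.024 in S4 and -0.062 in S5, so it was higher in SPOPmut in 4 of 6 pairs. The mean difference was 0.28 (SE 0.098, 95% confidence interval 0.055 to 0.50), or 1.21-fold, and it did not pass the correction (limma unadjusted p = 0.0208, adjusted p = 0.881). Without S0 the mean difference was 0.24, and without S1 it was 0.23 (limma unadjusted p = 0.0657).

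The 2 RefSeq promoter windows of Pik3r1 are shown because the deposited tables hold 1 value for the gene, so that the levels above cannot be assigned to either start. Each is the 250 bases before an annotated start on GRCm38.p6, minus strand, printed in lower case from 5′ to 3′, with no motif marked.
Pik3r1, long transcript, chr13:101768218-101768467: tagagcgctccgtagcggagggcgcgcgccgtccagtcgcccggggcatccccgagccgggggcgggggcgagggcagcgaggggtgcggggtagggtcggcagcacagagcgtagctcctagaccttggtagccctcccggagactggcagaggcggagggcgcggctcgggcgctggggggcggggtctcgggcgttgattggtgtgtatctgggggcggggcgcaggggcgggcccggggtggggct
Pik3r1, internal start, chr13:101692631-101692880: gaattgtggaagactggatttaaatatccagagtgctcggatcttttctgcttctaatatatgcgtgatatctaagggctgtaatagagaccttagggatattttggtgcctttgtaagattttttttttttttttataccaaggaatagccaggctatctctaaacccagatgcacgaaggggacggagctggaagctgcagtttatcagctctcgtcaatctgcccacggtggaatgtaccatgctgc
The first window had a GC content of 76.4% and the second of 42.4%. Neither holds GTAAACA, the core bound by forkhead factors, only some of which AKT keeps out of the nucleus. Nor does either hold CACGTG, the E-box core bound by MYC and TFEB, on either strand. Over all 32851 RefSeq windows of this length, 3.17% held GTAAACA and 6.02% held CACGTG. Of 27 members with a window (38 windows), Akt1 alone had GTAAACA, and Irs1, Irs2 and Rheb had CACGTG. The Akt1 match lies on the opposite strand, as TGTTTAC at position -161 from the start, and is in capitals in the window below (GRCm38.p6, minus strand). The other Akt1 window, chr12:112674277-112674526, holds neither motif.
Akt1, chr12:112674885-112675134: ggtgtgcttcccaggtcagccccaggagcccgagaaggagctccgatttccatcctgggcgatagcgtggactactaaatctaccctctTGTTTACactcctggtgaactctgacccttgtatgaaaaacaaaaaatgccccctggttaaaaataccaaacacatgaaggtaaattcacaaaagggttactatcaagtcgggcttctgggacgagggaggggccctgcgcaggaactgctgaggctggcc
A match in these letters is a description and shows no binding.

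The other regulatory subunits moved less between genotypes. Pik3r2 (p85 beta) was between 16.5 and 36.4 RPKM in SPOPmut (median 18.0) and between 13.8 and 36.1 RPKM in SPOPwt (median 18.0), with a difference of 0.017 (SE 0.078). Pik3r3 (p55 gamma) was low, at 0.512 to 3.50 RPKM in SPOPmut (median 0.845) and 0.384 to 2.12 RPKM in SPOPwt (median 0.598). It was higher in SPOPmut in 6 of 6 pairs, by 0.0089 to 0.53 log2 units, but it was below the filter and was not tested. Its exons share 1289 bases with those of another gene model on the same strand, so its level is uncertain.

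Pik3ca, the alpha catalytic subunit, had the same direction in every pair and a small size. It stood at 7.97 to 11 RPKM in SPOPmut (median 8.94) and at 7.43 to 10.6 RPKM in SPOPwt (median 7.70). The difference was 0.33 in S0 and 0.034 to 0.099 in S1 to S5, with a mean of 0.11 (SE 0.063, 95% confidence interval -0.031 to 0.26, limma adjusted p = 0.887). Pik3cb, the beta catalytic subunit, ran from 1.62 to 10.4 RPKM in SPOPmut (median 3.55) and from 1.98 to 9.19 RPKM in SPOPwt (median 3.60). Its mean difference of -0.072 (SE 0.13) held a value of -0.77 in S0, and without S0 the mean was 0.067. Pik3cd, the delta subunit of leukocytes, reached at most 0.451 RPKM in SPOPmut and 0.297 RPKM in SPOPwt. The leukocyte genes Ptprc and Cd3e were at most 0.00193 and 0.00950 RPKM in any library, and the mean log2 level of the 7 leukocyte markers found was 0.48 to 0.67 in SPOPmut and 0.48 to 0.65 in SPOPwt. Most of that level came from Csf1r and Cd68, which reached at most 3.83 and 4.74 RPKM in any library.

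The adaptors that link receptors to PI3K gave no common direction. Irs1 stood at 6.47 to 11.6 RPKM in SPOPmut (median 9.96) and at 7.78 to 13.4 RPKM in SPOPwt (median 9.53), a difference of -0.091 (SE 0.074). Its exons overlap 2822 bases of a gene model on the opposite strand, and the library kit does not keep strand, so reads of the overlapping genes cannot be told apart. Irs2 was at 3.04 to 6.25 RPKM in SPOPmut (median 5.58) and 3.35 to 6.05 RPKM in SPOPwt (median 4.88), with a mean difference of 0.10 (SE 0.12). That mean rested on S1, where Irs2 had 6.25 RPKM in SPOPmut and 3.35 RPKM in SPOPwt (0.74 log2 units), and without S1 it was -0.023. Grb10 ran from 0.00651 to 2.64 RPKM in SPOPmut (median 0.860) and from 0.00732 to 2.07 RPKM in SPOPwt (median 0.676), and was higher in SPOPmut in 5 of 6 pairs, untested.

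**Figure D2:**
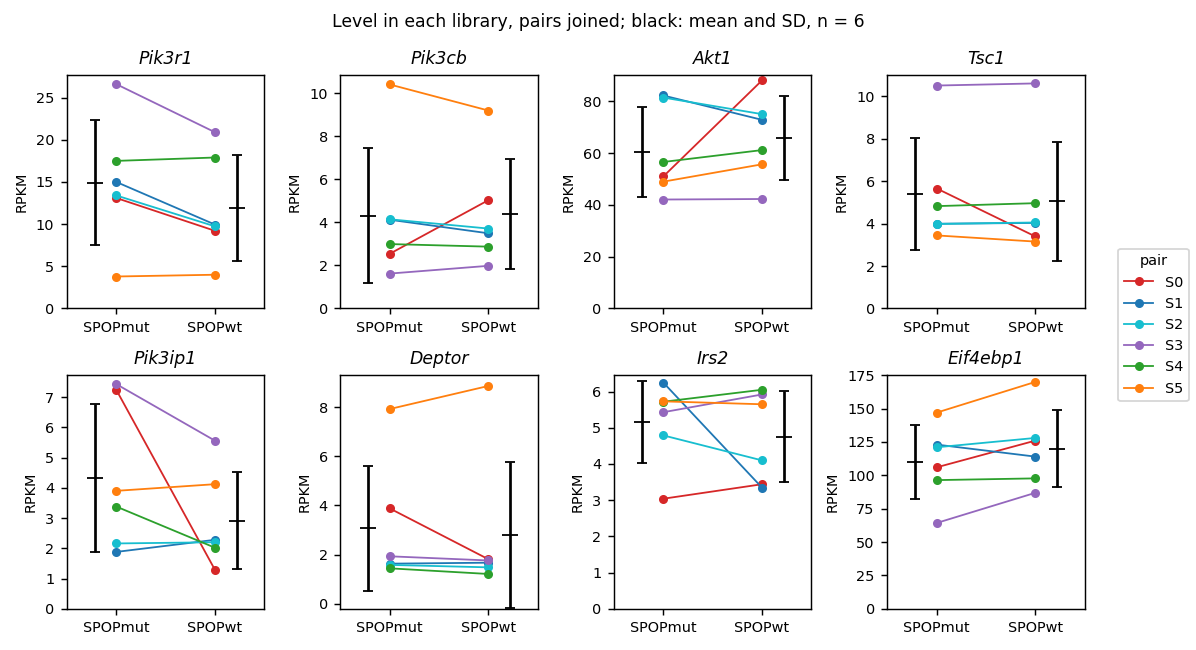
RPKM of 8 members in each library, with SPOPmut left of SPOPwt, the libraries of a pair joined by a line and the mean and SD of 6 libraries in black. The S0 line is the steepest for Pik3cb, Akt1, Tsc1, Pik3ip1 and Deptor, while S5 lies apart for Pik3r1, Pik3cb and Deptor in both genotypes.

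The kinases at the centre of the pathway had mean differences near 0 outside S0. Akt1 was the most abundant of the listed kinases, at 42.1 to 82.3 RPKM in SPOPmut (median 53.8) and 42.3 to 88.1 RPKM in SPOPwt (median 67.1). Its difference was -0.13 (SE 0.12), of which S0 contributed -0.78 (51.0 RPKM in SPOPmut, 88.1 RPKM in SPOPwt), and the mean without S0 was -0.0015. Akt2 spanned 6.28 to 8.26 RPKM in SPOPmut (median 7.56) and 7.00 to 8.13 RPKM in SPOPwt (median 7.48), a difference of -0.012 (SE 0.061). Pdpk1, which encodes PDK1, the kinase of the AKT activation loop, stood at 5.36 to 9.28 RPKM in SPOPmut (median 5.82) and 5.49 to 9.01 RPKM in SPOPwt (median 5.89). It differed by -0.013 (SE 0.055), the smallest standard error among the members.

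The TSC complex, an inhibitor of the small GTPase RHEB that activates mTOR complex 1, had levels that varied more between pairs than within them, except in S0. Tsc1 ran from 3.44 to 10.5 RPKM in SPOPmut (median 4.40) and from 3.15 to 10.6 RPKM in SPOPwt (median 4.04). In S0 it was 5.65 RPKM in SPOPmut and 3.39 RPKM in SPOPwt. In S1 to S5 the difference stayed between -0.034 and 0.097 log2 units (mean over all pairs 0.10, SE 0.096). Tsc2 stood at 14.7 to 22.6 RPKM in SPOPmut (median 16.8) and 14.0 to 22 RPKM in SPOPwt (median 15.9), a difference of 0.043 (SE 0.059). Tsc2 shares 693 exon bases with Pkd1 on the opposite strand. Rheb was at 8.64 to 15.4 RPKM in SPOPmut (median 10.6) and 9.42 to 17.7 RPKM in SPOPwt (median 10.7), a difference of -0.038 (SE 0.083).

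The subunits of the mTOR complexes had small mean differences, although Rictor varied between pairs. Mtor, the shared kinase, had 4.80 to 7.34 RPKM in SPOPmut (median 6.68) and 5.22 to 7.43 RPKM in SPOPwt (median 6.73), differing by -0.026 (SE 0.068). Rptor, which defines complex 1, had 3.28 to 3.87 RPKM in SPOPmut (median 3.59) and 3.50 to 4.13 RPKM in SPOPwt (median 3.66), differing by -0.043 (SE 0.060). Rictor, which defines complex 2, had 6.0 to 11.3 RPKM in SPOPmut (median 8.55) and 5.62 to 12.7 RPKM in SPOPwt (median 8.51). Rictor was lower in SPOPmut in the 5 pairs other than S0, where it was 8.45 RPKM in SPOPmut and 5.62 RPKM in SPOPwt. Its mean difference was -0.034 (SE 0.10) over 6 pairs and -0.14 without S0. Mlst8, a subunit of both complexes, had 6.41 to 8.07 RPKM in SPOPmut (median 7.23) and 6.27 to 7.58 RPKM in SPOPwt (median 6.71), differing by 0.058 (SE 0.072), and shares 997 exon bases with Bricd5 on the opposite strand.

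The effectors of mTOR complex 1 included the most abundant member. Eif4ebp1, a repressor of cap-dependent translation that mTOR inactivates, stood at 64.3 to 147 RPKM in SPOPmut (median 113) and 86.9 to 170 RPKM in SPOPwt (median 120). It was lower in SPOPmut in 5 of 6 pairs, by 0.14 on average (a difference of -0.14, SE 0.087, 95% confidence interval -0.34 to 0.056, limma adjusted p = 0.887). Its relative Eif4ebp2 stood at 21.3 to 32.2 RPKM in SPOPmut (median 27.4) and 25.1 to 30.8 RPKM in SPOPwt (median 28.6), a difference of -0.057 (SE 0.093). The S6 kinase gene Rps6kb1 had 7.30 to 9.72 RPKM in SPOPmut (median 7.96) and 7.84 to 9.25 RPKM in SPOPwt (median 8.26), differing by -0.014 (SE 0.068). The other S6 kinase gene, Rps6kb2, had 4.36 to 6.83 RPKM in SPOPmut (median 5.01) and 3.49 to 7.76 RPKM in SPOPwt (median 5.07), differing by 0.020 (SE 0.11), and shares 1224 exon bases with Ptprcap on the opposite strand.

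Of the negative regulators, Pik3ip1, a membrane protein that binds and restrains the PI3K catalytic subunit, had the largest difference in size and the widest error. It ran from 1.88 to 7.43 RPKM in SPOPmut (median 3.64) and from 1.29 to 5.56 RPKM in SPOPwt (median 2.24). The mean difference was 0.41 (SE 0.25, 95% confidence interval -0.16 to 0.98, limma adjusted p = 0.887). In S0 it was 7.24 RPKM in SPOPmut and 1.29 RPKM in SPOPwt, a difference of 1.85, and without S0 the mean was 0.12. Deptor, an inhibitory subunit of mTOR complexes, was also high in the S0 mutant, at 3.88 RPKM against 1.81 RPKM in the S0 control. Its mean difference was 0.15 (SE 0.12), and 0.025 without S0.

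Akt1s1, the PRAS40 subunit that inhibits mTOR complex 1, stood at 9.29 to 14.8 RPKM in SPOPmut (median 12.3) and 9.96 to 16.2 RPKM in SPOPwt (median 12.6), a difference of -0.064 (SE 0.075). The phosphatase genes Phlpp1 and Phlpp2, whose products remove phosphate from AKT, had small differences. Phlpp1 had 5.61 to 10.1 RPKM in SPOPmut (median 8.88) and 5.47 to 10.8 RPKM in SPOPwt (median 8.18), a difference of 0.0022 (SE 0.080) that was -0.0087 after quantile normalization and -0.0092 after median centring. Phlpp2 had 3.85 to 5.23 RPKM in SPOPmut (median 4.39) and 4.02 to 5.52 RPKM in SPOPwt (median 4.51), a difference of -0.030 (SE 0.059). Inpp4b, a phosphatase of PI3K lipid products, was at most 0.223 RPKM in SPOPmut and 0.133 RPKM in SPOPwt. Inpp5d, which encodes the leukocyte phosphatase SHIP1, was at most 0.0276 RPKM in SPOPmut and 0.00481 RPKM in SPOPwt. In the same libraries Ptprc and Cd3e were at or near 0, whereas Cd68 was at least 2.13 RPKM and Csf1r at least 1.09 RPKM.

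Read pair by pair, S0 stood apart for the members much as for all genes. At 1.5-fold or more in S0, 3 of 25 members were higher in SPOPmut (Tsc1, Pik3ip1 and Deptor), against 12.4% of all tested genes. In the same pair 2 of 25 were lower (Pik3cb and Akt1), against 12.8%. The spread of the members' differences in S0 was 0.55 log2 units (SD over 25 genes), beside 0.56 over all tested genes, and 0.12 to 0.22 in S1 to S5. In S1, 1 member (4.00%, Irs2) passed 1.5-fold in either direction, against 3.50% of all genes. In S2 to S5 none of the 25 members did, whereas the shares of all tested genes were 0.934% in S2, 1.51% in S3, 2.40% in S4 and 5.74% in S5. S0 is 1 pair, so these folds have no replicate check. Proliferation markers stood at 4.71 in the S0 mutant and 5.53 in the S0 control (mean log2 level of 6 genes). Cell type markers also differed within S0. The keratin genes Krt18 and Krt8 had 89.6 and 21.5 RPKM in the S0 mutant, against 17.9 and 4.45 RPKM in the S0 control, and the basal factor Trp63 had 1.09 RPKM against 0.112 RPKM in the control. Acta2, a smooth muscle actin, had 107 RPKM in the S0 mutant and 758 RPKM in the S0 control. Over whole lists the S0 mutant and control stood at 2.28 and 1.63 for luminal, 0.90 and 0.64 for basal, and 5.66 and 5.72 for fibroblast and smooth muscle markers (mean log2 level). The part of these markers in the S0 differences was not tested.

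**Figure D3:**
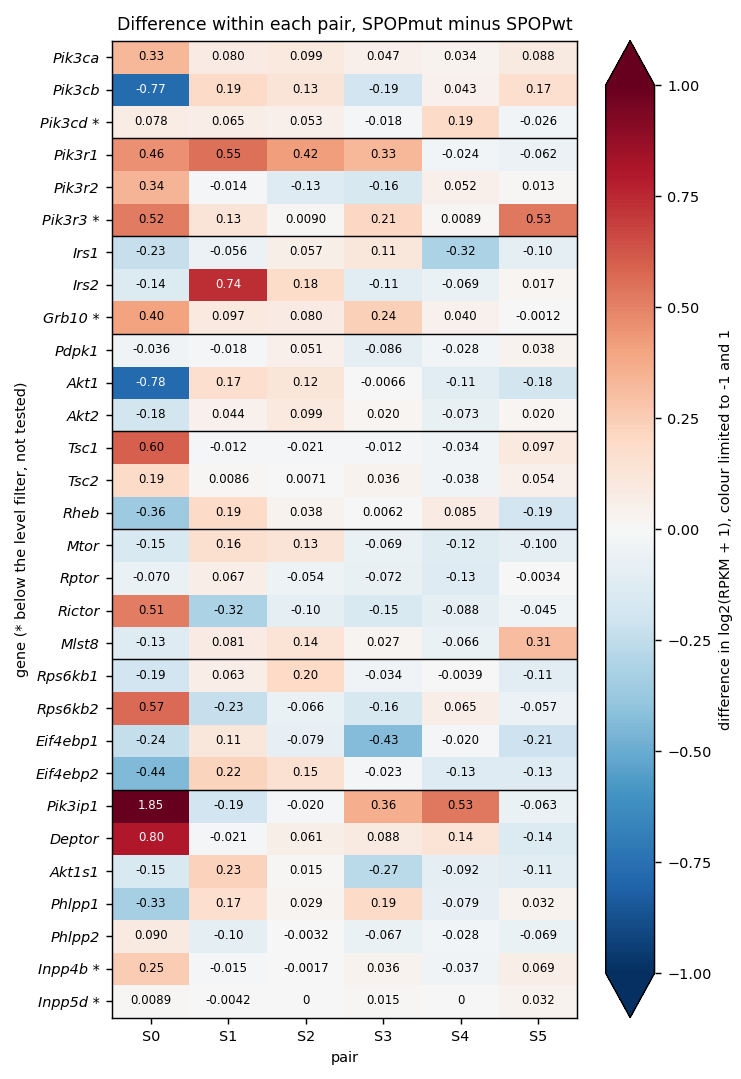
Difference between SPOPmut and SPOPwt within each of the 6 pairs for the 30 members, in log2(RPKM + 1) units, with red for higher and blue for lower in SPOPmut. The S0 column holds the strongest colours, from -0.78 (Akt1) to 1.85 (Pik3ip1).

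Pair S5, whose libraries carried epithelial markers, was set beside the 10 libraries of S0 to S4 as a description, since S5 is 1 pair. A gene was counted when both S5 libraries lay beyond all of those 10 and the means differed by at least 1 log2 unit. Of 27 members at 1 RPKM or more in at least 2 libraries, 2 (7.41%) were higher in S5, against 10.8% of 15508 genes, and 2 (7.41%) were lower, against 12.4%. At 1.5-fold in place of 2-fold, 6 of 27 (22.2%) were higher, against 18.2% of all genes, and 2 (7.41%) were lower, against 20.9%. The median S5 difference of the members was 0.047 log2 units, beside -0.039 over all genes.

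The members higher in S5 were Pik3cb and Deptor. Pik3cb had 10.4 RPKM in the S5 mutant and 9.19 RPKM in the S5 control, against 1.62 to 5.03 RPKM in S0 to S4 (median 3.24), a difference of 1.39 log2 units. Deptor had 7.93 RPKM in the S5 mutant and 8.87 RPKM in the S5 control, against 1.21 to 3.88 RPKM in S0 to S4 (median 1.65), a difference of 1.76 log2 units. The highest of the 10 other libraries was the S0 mutant for Deptor and the S0 control for Pik3cb. The members lower in S5 were Pik3r1 and Grb10. Pik3r1 had 3.79 RPKM in the S5 mutant and 4.00 RPKM in the S5 control, against 9.21 to 26.6 RPKM in S0 to S4 (median 14.2), a difference of -1.67 log2 units. Grb10 had 0.00651 RPKM in the S5 mutant and 0.00732 RPKM in the S5 control, against 0.399 to 2.64 RPKM in S0 to S4 (median 0.860), a difference of -1.09 log2 units.

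Just outside the threshold was Pik3r2, at 36.4 RPKM in the S5 mutant and 36.1 RPKM in the S5 control, against 13.8 to 24.1 RPKM in S0 to S4, a difference of 0.98 log2 units with no overlap. Pik3r3 differed by 1.04 log2 units, but its S5 control, at 2.12 RPKM, lay below the S3 mutant at 2.48 RPKM. Smaller differences without overlap were those of Pdpk1 (0.59), with 9.28 and 9.01 RPKM in S5 (SPOPmut, SPOPwt) against 5.36 to 6.11 RPKM in S0 to S4, of Rheb (0.62) and of Eif4ebp1 (0.59). Mtor (-0.38) and Phlpp1 (-0.56) lay below all 10 libraries by less than the threshold. The S5 libraries also differed from the rest in proliferation markers, at 1.80 in the S5 mutant and 2.43 in the S5 control against 2.77 to 5.60 in S0 to S4 (mean log2 level). Cell type, proliferation and, where S5 is the model B pair, the Cre model cannot be told apart as the setting of these differences.

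**Figure D4:**
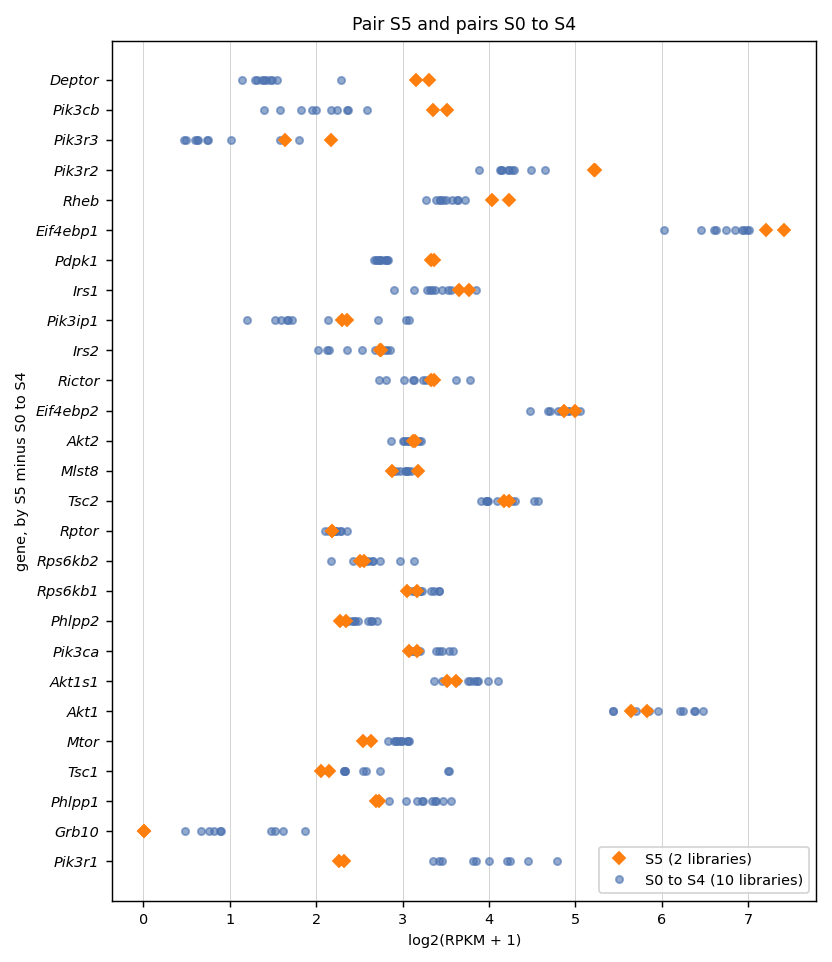
Level of the members in both S5 libraries (diamonds) and in the 10 libraries of S0 to S4 (circles), as log2(RPKM + 1), for the 27 members in the comparison. Pik3cb, Deptor, Pik3r2 and, by less, Pdpk1, Rheb and Eif4ebp1 lie above all libraries of S0 to S4. Pik3r1, Grb10 and, by less, Mtor and Phlpp1 lie below them.

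Expressed as shares of the summed RPKM of an isoform group, which compares levels per transcript length, the class IA subunits of S5 had another make-up than those of S0 to S4. Pik3cb was 56.6% of the catalytic RPKM in the S5 mutant and 55.1% in the S5 control, against 12.7 to 39.1% in S0 to S4. Pik3ca made up 43.2% in the S5 mutant and 44.6% in the S5 control, against 59.9 to 86.0% in S0 to S4. In S5 the beta subunit was thus the more abundant catalytic transcript in both libraries, and in the other 10 the alpha subunit was. Pik3cd was at most 3.44% of the group in any library.

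Pik3r2 predominated among the regulatory transcripts of S5. Pik3r1 was 8.66% of the regulatory RPKM in the S5 mutant and 9.47% in the S5 control, against 33.9 to 52.7% in S0 to S4. Pik3r2 was 83.3% in the S5 mutant and 85.5% in the S5 control, against 42.4 to 64.2% in S0 to S4. Pik3r3 was 8.01% in the S5 mutant and 5.03% in the S5 control, against 1.42 to 4.90% in S0 to S4. These are descriptions from 1 pair, and the shares of a group sum to a fixed total, so a higher share of one means a lower share of another.

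The AKT genes did not follow that pattern. Akt1 was 86.2% of the summed RPKM of Akt1 and Akt2 in the S5 mutant and 87.8% in the S5 control, within the 83.6 to 92.4% of S0 to S4. Also inside the range of S0 to S4 were the S5 shares of the S6 kinases, the IRS adaptors, the PHLPP phosphatases and the pair Rptor and Rictor. Tsc1 was 16.3% of the TSC complex in the S5 mutant and 15.7% in the S5 control, below the 19.5 to 32.6% of S0 to S4. Eif4ebp1 was 84.0% of the 4E-BP sum in the S5 mutant and 84.7% in the S5 control, just above the 72.3 to 83.3% of S0 to S4.

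Between genotypes the shares differed by less than 1 SD of the pair differences, except that of Pik3r2. The Pik3ca share of catalytic RPKM was 68.4 ± 14.9% in SPOPmut and 65.8 ± 13.2% in SPOPwt (SD, n = 6), a difference of 2.64 ± 8.0 percentage points within pairs. It was 18.5 points in S0 and between -2.32 and 2.98 points in the other pairs. The Pik3r1 share was 40.1 ± 15.9% in SPOPmut and 35.6 ± 13.9% in SPOPwt, a difference of 4.56 ± 5.30 points, with 10.0 points in S1, 9.65 in S2 and 8.15 in S3. The Pik3r2 share was 56.3 ± 14.1% in SPOPmut and 61.7 ± 13.1% in SPOPwt, a difference of -5.42 ± 4.75 points, and was lower in SPOPmut in 5 of 6 pairs. The Akt1 share was 88.4 ± 3.14% in SPOPmut and 89.2 ± 3.16% in SPOPwt, a difference of -0.793 ± 1.47 points. The Irs1 share differed by -3.46 ± 6.20 points, with -14.8 in S1, and the Rps6kb1 share by -0.656 ± 7.27 points, with -14.4 in S0.

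**Figure D5:**
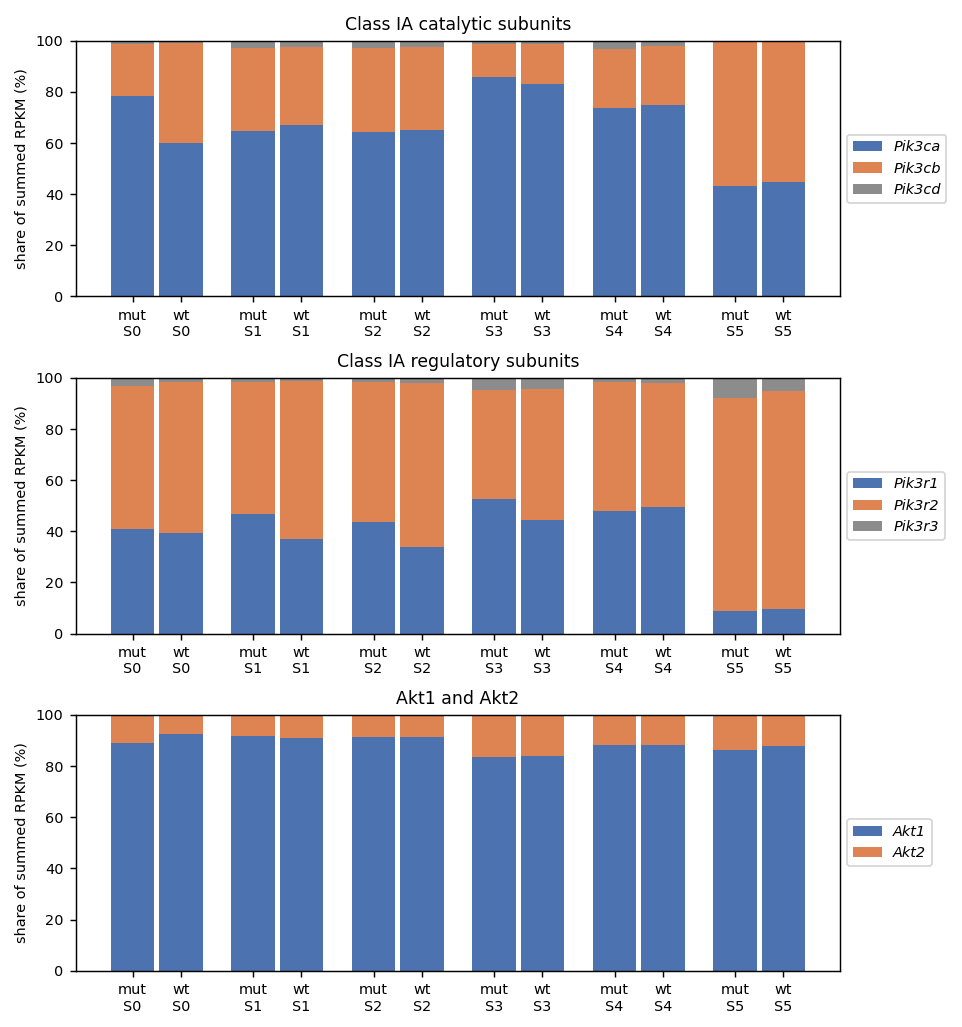
Share of the summed RPKM within 3 isoform groups (class IA catalytic subunits, class IA regulatory subunits, Akt1 and Akt2) in percent for each library, SPOPmut left of SPOPwt. In the S5 libraries Pik3cb takes 55.1 to 56.6% and Pik3r2 83.3 to 85.5% of its group, against at most 39.1% and 64.2% in S0 to S4. The AKT bars look alike across pairs.

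Among S0 to S4, pair S3 stood apart in both genotypes. Its libraries lay above all 8 libraries of S0, S1, S2 and S4 for 9 of the 25 tested members (36.0%), against 22.5% of all tested genes, and below them for 4 (16.0%), against 27.6%. The members above were Pik3ca, Pik3r1, Pik3r2, Akt2, Tsc1, Tsc2, Rictor, Rps6kb2 and Phlpp2, and those below were Pik3cb, Akt1, Mlst8 and Eif4ebp1. Tsc1 had 10.5 RPKM in the S3 mutant and 10.6 RPKM in the S3 control against 3.39 to 5.65 RPKM in those 8 libraries. Proliferation markers in S3 stood at 3.23 in SPOPmut and 2.77 in SPOPwt, against 4.71 to 5.60 in the 8 libraries (mean log2 level), and their part in these levels was not tested.

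A wider list of 84 other genes of the pathway gave no call either. Of 74 tested, 0 passed the adjusted threshold. At an unadjusted p under 0.05, 3 (4.05%: Sgk1, Pik3c2a and Phlda3) were higher in SPOPmut, against 3.82% of all tested genes, and 0 were lower, against 1.77%. The median difference of the 74 genes was 0.029 log2 units, with 46 higher and 28 lower on average. Over all tested genes the median was 0.00055 log2 units, and 50.2% were higher on average. Sgk1, a kinase related to AKT and activated by mTOR complex 2, averaged 62.9 ± 14.8 RPKM (SD, n = 6) in SPOPmut and 51.0 ± 10.3 RPKM in SPOPwt, a difference of 0.28 (SE 0.091, limma adjusted p = 0.881). Pik3c2a, a class II PI3K, averaged 19.9 ± 0.557 RPKM (SD, n = 6) in SPOPmut and 17.6 ± 1.51 RPKM in SPOPwt, and was higher in SPOPmut in 6 of 6 pairs, by 0.17 (SE 0.070, limma adjusted p = 0.886). Among those lower in SPOPmut the smallest p belonged to Nprl3, a subunit of an amino acid-sensing inhibitor of mTOR complex 1, at -0.17 (SE 0.079), and to Tti1, an assembly factor of mTOR-like kinases, at -0.12 (SE 0.067). In S0, 17 of the 74 (23.0%) were at least 1.5-fold higher and 4 (5.41%) at least 1.5-fold lower in SPOPmut, beside the 12.4% and 12.8% of all genes given above.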

How the data were processed

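Per the labels, 6 SPOPmut and 6 SPOPwt libraries were made with version 2 of the TruSeq RNA kit, an unstranded protocol, and read as paired 51-base ends on a HiSeq 2500. The authors deposited 1 table of RPKM per library. The submitters' processing notes name the builds GRCm38 and mm10 and the aligner STAR 2.4.0j; for the counting program and the annotation, neither is given in the sources used here. RPKM is relative to all other genes, so abundant genes can shift it.

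Values were analysed as log2(RPKM + 1), which understates changes of genes of low level. All folds given are of RPKM + 1. Genes at 1 RPKM or more in at least 6 of 12 libraries were kept. limma 3.58.1 (R 4.3.3) fitted pair and genotype with a trended, robust prior; p-values (two-sided) were adjusted over all tested genes with the Benjamini-Hochberg method and called under 0.05. The rest was done in Python 3.11.15 (matplotlib 3.10.9, scipy 1.17.1, numpy 2.4.6, pandas 2.3.3). S5 was compared with S0 to S4, and isoform shares were formed, without tests. Other pseudocounts, filters, scalings, priors, weights and left-out pairs were tried.

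The step between low values, with GENCODE M21 exon lengths (found for 91.2% of names), gave the estimated depth. Of low values, 38.0 to 41.6% lay within 0.04 of a step, against 16.0% by chance, so whole reads were not recovered, and neither a count test nor counting intervals were used. No libraries were merged as duplicates: the lowest median chi-square was 1.163, against 0.455 from sampling. It was that of the S1 and S2 controls, followed by 2.005 for the S1 and S2 mutants and then 7.571 for the S0 and S2 controls. S1 and S2 were thus the closest in both groups, and it is not stated whether they were separate cultures.

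Pairing comes from the labels. Libraries of equal number deviated together from their group means in S1 to S5 (correlations across genes of 0.753, 0.888, 0.946, 0.862 and 0.954) but hardly in S0 (0.0602). S1 and S3, and S2 and S4, share index sequences within a group; no other batch is labelled. The members and all gene lists were chosen with earlier results of these data known. All 30 members are named, with, of the wider list, the genes of smallest p in each direction, and 1 gene covered by this rule is not reported; Phlda3, Krt8, Krt18, Trp63 and Acta2 were named after their values were seen. Leukocyte markers were found for 7 of 8 names. Promoter windows are from RefSeq GRCm38.p6, with motifs searched on both strands. The fit was tested on simulated data.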

Additional observations from a re-analysis of the deposited data

Results flagged for a closer look

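In each set of 6 values, the highest or lowest was listed when its gap to the nearest other value, divided by the whole range, exceeded Dixon's 95% critical value. Chance lists about 1 in 20 sets. The share of all genes that this rule would list was not computed, so the counts below are no result about the members. Of 27 sets of within-pair differences, 8 were listed, and 7 of these values belonged to S0. Differences in S0 also spread widest over all 13600 tested genes, with an SD of 0.56 log2 units against 0.16 to 0.30 in S1 to S5. In S0 the difference between SPOPmut and SPOPwt stood apart at 0.33 for Pik3ca, -0.78 for Akt1, 0.60 for Tsc1, 0.51 for Rictor, 0.57 for Rps6kb2, 1.85 for Pik3ip1 and 0.80 for Deptor (log2 units). In S1 the difference of Irs2 stood apart at 0.74.

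Of 9 sets of share differences, 3 were listed, all at S0. The SPOPmut minus SPOPwt share differed by 18.5 percentage points for Pik3ca among the catalytic subunits, by -14.4 points for Rps6kb1 among the S6 kinases and by 6.53 points for Tsc1 in the TSC complex.

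Of 54 sets of levels, 6 were listed, and 5 of these values belonged to S5. Over all genes, 10.8% were higher and 12.4% lower in S5 than in all libraries of S0 to S4 by at least 2-fold. In the S5 mutant Pik3r2 stood at 36.4 RPKM and Pdpk1 at 9.28 RPKM. In the S5 control Pdpk1 stood at 9.01 RPKM, Rheb at 17.7 RPKM and Deptor at 8.87 RPKM. In the S3 control Tsc1 stood at 10.6 RPKM.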

How the results depend on the processing

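No member was called under any of the 16 alternatives of the genotype fit, and 361 of 400 member differences kept their direction while 39 reversed. The 9 genes called over all genes with library weights held no member; the other alternatives called 0. Phlpp1 was -0.0087 after quantile normalization and -0.0092 after median centring. With library weights, the reversed differences were 0.055 for Pik3cb, -0.079 for Pik3r2, 0.0051 for Pdpk1, 0.041 for Akt1, 0.046 for Akt2, -0.0024 for Tsc1, 0.039 for Rheb, 0.048 for Mtor, 0.088 for Rps6kb1, -0.077 for Rps6kb2 and 0.069 for Eif4ebp2. Without pairs S0 and S5 together they were 0.042 for Pik3cb, -0.063 for Pik3r2, 0.043 for Akt1, 0.022 for Akt2, -0.020 for Tsc1, 0.080 for Rheb, 0.025 for Mtor, 0.055 for Rps6kb1, -0.099 for Rps6kb2 and 0.056 for Eif4ebp2. Leaving out 1 pair each turned the direction of 11 members, whose differences then ranged from -0.12 to 0.067 for Pik3cb, -0.048 to 0.053 for Pik3r2, -0.034 to 0.022 for Akt2, -0.084 to 0.027 for Rheb, -0.056 to 0.022 for Rps6kb1, -0.090 to 0.071 for Rps6kb2, -0.11 to 0.019 for Eif4ebp2, -0.023 to 0.15 for Irs2, -0.14 to 0.025 for Rictor, -0.036 to 0.068 for Phlpp1 and -0.026 to 0.0013 for Pdpk1, and the cause was not tested. An unadjusted p under 0.05 was met by 2 members without S0 (Pik3r1 and Rictor, against 7.91% of all genes). Without S1, S2 or S3 it was met by 0 members, against 4.86%, 4.00% and 4.88% of all genes. Without S4 or S5 it was met by Pik3r1 alone, against 4.04% and 5.26%. With library weights it was met by Pik3r1 and Rictor, against 15.3% of all genes, and the adjusted p of Pik3r1 was 0.0967.

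Without the replicate block for the pairing, 0 genes and 0 members were called, 29 genes (0.213%) had an unadjusted p under 0.05, and the difference of Pik3r1 was again 0.28. The number of members higher in S5 was 6 at 1.5-fold or more (22.2%, against 18.2% of all genes). When 1 pair of S0 to S4 was left out it ranged from 2 to 4, with 4 without S3 (Pik3r2 at 1.06 and Pik3r3 at 1.25 log2 units were added). The number lower ranged from 1 to 2, with 1 without S3 and 1 without S4, where Grb10 differed by -0.93 and -0.99. Of 270 S5 differences, 266 stayed within 1 SD, 4 moved, all with a pseudocount of 0.1, and 0 reversed. Depth limits genes of low level: at under 1 RPKM, Pik3cd, Inpp4b and Inpp5d allow no statement on genotype.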

Other observations

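In pair S5, 7 of 77 other pathway genes (9.09%) were higher than in all libraries of S0 to S4 by at least 2-fold, against 10.8% of all genes, and 4 (5.19%) were lower, against 12.4%. Both shares were below those of all genes. The genes named here were chosen after their values were seen. Ddit4, which encodes REDD1, a stress-induced inhibitor of mTOR complex 1, had 323 RPKM in the S5 mutant and 339 RPKM in the S5 control, against 18.1 to 45.8 RPKM in S0 to S4. Sesn2, a leucine sensor that restrains mTOR complex 1, had 19.3 RPKM in the S5 mutant and 23.0 RPKM in the S5 control, against 4.41 to 10.4 RPKM. Trib3, a pseudokinase that binds AKT, had 48.0 RPKM in the S5 mutant and 67.7 RPKM in the S5 control, against 3.36 to 17.6 RPKM. Their relatives did not share a direction. Ddit4l was also higher, with 11.1 RPKM in the S5 mutant and 3.79 RPKM in the S5 control, against 0.397 to 2.26 RPKM. Trib1 (0.38 log2 units) and Sesn1 (-0.97) did not reach the threshold, and Sesn3 and Trib2 were lower. Sesn3 had 6.22 RPKM in the S5 mutant and 5.63 RPKM in the S5 control, against 11.6 to 25.5 RPKM, and Trib2 had 0.990 RPKM in the S5 mutant and 0.924 RPKM in the S5 control, against 1.27 to 18.5 RPKM. Eif4e, the cap-binding protein that 4E-BP proteins hold, was lower, with 18.2 RPKM in the S5 mutant and 19.7 RPKM in the S5 control, against 24.8 to 55.9 RPKM. S5 is 1 pair, and none of these differences was tested.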
